A study of Mus musculus with 3 samples.

Results

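The transcripts of 9 protein kinase genes were followed in chromatin-bound RNA of mouse macrophages: Pim1, Pim2, Pim3, Plk2, Plk3, Sgk1, Sik1, Sik2 and Sik3. They were chosen by symbol, as members of kinase families described elsewhere as inducible, out of 55536 annotated genes. All 9 were detected, which here means a mean of at least 10 expected counts (reads assigned to a gene by the authors' model), as were 14396 genes in all, 10983 of them protein coding. The cells were macrophages, the phagocytes of innate immunity, grown out of C57BL/6J bone marrow and given lipid A at 100 ng/ml for 30 min. Lipid A is the membrane anchor of bacterial endotoxin and the ligand of TLR4. RNA of the chromatin fraction was depleted of ribosomal RNA and sequenced as total RNA, so nascent and unspliced transcripts were kept. There was 1 group of 3 libraries, labelled as biological replicates 1 to 3 and made from 1 µg, 250 ng and 500 ng of RNA. They carry the same donor record, and sex and age were not collected. The labels do not say if separate mice were used, so spreads and p-values describe these libraries and may be technical. Cells without lipid A were not analysed here, so levels and differences within libraries are described and induction is not.

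Several of these kinases are known to be controlled largely through the amount of their RNA. PIM kinases are active as soon as they are made and phosphorylate survival and cell-cycle proteins such as BAD and the inhibitors p21 and p27, and PLK2 and PLK3 are the stress-responsive relatives of the mitotic kinase PLK1. SGK1 is a relative of AKT that needs PDK1 and mTORC2 for activity and restrains the ubiquitin ligase NEDD4L. The salt-inducible kinases SIK1, SIK2 and SIK3 are switched on by the kinase LKB1 (gene Stk11) and hold CRTC co-activators and class IIa histone deacetylases in the cytoplasm, and in macrophages their inhibition is known to raise interleukin-10.

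Annotated genes received 16301150, 17033725 and 16205704 expected counts in libraries 1 to 3, of which the 9 kinase genes took 0.107%. Plk2 and Pim1 made up 73.2% of that. All 7 macrophage markers were detected at a summed 501 to 721 TPM, a measure of abundance per transcript length scaled to a fixed library total. Among the markers of other cells, 0 of 4 for T cells (summed 0 to 0.03 TPM, with Cd3e, Cd3g and Cd2 at 0), 0 of 5 for neutrophils (0.48 to 1.62 TPM) and 3 of 4 for fibroblasts (0.03 to 1.08 TPM) were detected. These are values of the first quantification, and in the second the T-cell marker Cd3d had 8.77, 11.9 and 21.5 TPM, so its level is uncertain. In bulk RNA, fewer cells of a type and less RNA per cell cannot be told apart.

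Plk2 and Pim1 stood far above the other kinase genes. Plk2 spans 5.80 kb of chromosome 13 (ENSMUSG00000021701.8, chr13:110395046-110400844, plus strand, build mm10). It had 156, 172 and 306 TPM in libraries 1 to 3, from 8013, 8077 and 9727 expected counts. Its mean of 211 ± 82.3 TPM (SD, n = 3) ranked 108 among the detected protein-coding genes. Library 3 was the highest in TPM, as it was for the median detected protein-coding gene (3.48, 4.45 and 6.88 TPM in libraries 1 to 3). On the scale of log2 CPM, counts scaled to library size with no length correction, the 3 libraries were close at 9.02, 8.95 and 9.08.

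Because Plk2 was the most abundant of the 9 genes, the 250 bases before its start are shown, from RefSeq promoters on build GRCm38.p6 (chr13:110394794-110395043, plus strand, 5′ to 3′). Capitals mark the cyclic AMP response element TGACGTCA, which was searched on both strands and begins 62 bases upstream of the RefSeq start.
Plk2 promoter: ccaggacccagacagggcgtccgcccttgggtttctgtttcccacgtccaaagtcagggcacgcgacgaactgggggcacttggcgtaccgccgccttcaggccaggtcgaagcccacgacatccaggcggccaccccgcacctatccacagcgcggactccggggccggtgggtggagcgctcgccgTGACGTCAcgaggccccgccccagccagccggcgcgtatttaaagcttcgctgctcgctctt
This full element occurs in 1.55% of the 32851 promoters of the table (508 of them). Of the 9 genes, 8 have an entry there and Sik1 has none, and no other entry held the full element. Its short form TGACG, which the full element contains on each strand, was found without it in the promoters of Plk3 and Sik3 and in 1 of 6 alternative Sgk1 promoters, and in 17.8% of all promoters. That Sgk1 promoter lies 96.5 kb into the locus, where Sgk1-210 and Sgk1-213 start, both at 0 expected counts in each library. The Sgk1 promoters further into the locus held no TGACG. A kappa-B site, the element bound by NF-kB, was found 136 bases upstream of Pim3, and in 7.25% of all promoters. These matches are letters in a window and no measurement of binding.

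Pim1 (ENSMUSG00000024014.8, chr17:29490753-29496112, plus strand) had 164, 157 and 263 TPM from 4335, 3632 and 4946 expected counts. The mean was 195 ± 59.2 TPM, rank 124 among detected protein-coding genes and percentile 98.9. Its log2 CPM of 8.14, 7.80 and 8.11 was lowest in library 2. Plk2 exceeded Pim1 by 0.09 ± 0.15 (SD, n = 3) in log2(TPM + 0.1), in 2 of 3 libraries, so their order was within the spread. In the second deposited quantification of the same reads, Pim1 was the higher, at 404, 308 and 619.9 TPM against 252, 199 and 367 TPM for Plk2. The opposite strand of the Pim1 locus carries the gene model Gm26885 with a mean of 1046 expected counts. The strand setting of the counting is not given in the sources used here, so reads of this pair could have been exchanged.

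Sgk1 came next and was separated from both neighbours in TPM. It is annotated over 117.7 kb of chromosome 10 (ENSMUSG00000019970.15, chr10:21882184-21999903, plus strand) and had 48.4, 44.0 and 68.9 TPM in libraries 1 to 3, a mean of 53.8 ± 13.3 TPM at percentile 93.4. Pim1 exceeded Sgk1 by 1.84 ± 0.09 in log2(TPM + 0.1), and Sgk1 exceeded the fourth gene, Sik2, by 1.37 ± 0.21, each in 3 of 3 libraries.

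Sik2, Pim3 and Sik3 followed in TPM, and the place of Pim3 among them was within the spread. Sik2 (ENSMUSG00000037112.16, chr9:50892801-51009073, minus strand) had 15.7, 18.3 and 29.2 TPM, a mean of 21.1 ± 7.16. Sik3 (ENSMUSG00000034135.15, chr9:46012820-46224194, plus strand), the longest of the 9 genes at 211 kb, had 10.2, 11.9 and 18.2 TPM, a mean of 13.4 ± 4.22. Both SIK genes were highest in library 3 in TPM and lowest there in log2 CPM, with 6.17, 6.17 and 6.01 for Sik2 and 6.24, 6.09 and 6.05 for Sik3. Pim3 (ENSMUSG00000035828.11, chr15:88862186-88865726, plus strand) had 9.09, 13.9 and 33.6 TPM, from 340, 542 and 751 expected counts. Its mean was 18.9 ± 13.0 TPM and fell to 11.5 TPM without library 3. For Pim3 library 1 was the lowest and library 3 the highest in log2 CPM too, at 4.47, 5.06 and 5.39. Sik2 exceeded Pim3 by 0.32 ± 0.50 in log2(TPM + 0.1) and Pim3 exceeded Sik3 by 0.32 ± 0.53, each in 2 of 3 libraries. In the second quantification the differences were 1.82 for Sik2 minus Pim3 and −0.34 for Pim3 minus Sik3, from means of 45.1 ± 13.8 TPM for Sik2, 13.6 ± 7.70 TPM for Pim3 and 15.9 ± 4.08 TPM for Sik3, so Pim3 stood lowest of the group there.

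Sik1, Plk3 and Pim2 were the low members. Sik1 (ENSMUSG00000024042.7, chr17:31844250-31855804, minus strand), the SIK usually described as transcriptionally inducible, had 2.21, 5.16 and 8.86 TPM from 185, 399 and 562 expected counts, a mean of 5.41 ± 3.33 TPM at percentile 51.8. Library 1 stood below the other libraries in log2 CPM as well, at 3.59, against 4.62 and 4.97 in libraries 2 and 3. Sik3 exceeded it by 1.46 ± 0.61 in log2(TPM + 0.1) in 3 of 3 libraries. Plk3 (ENSMUSG00000028680.14, chr4:117128655-117133963, minus strand) had 1.27, 3.35 and 2.36 TPM from 75, 177 and 79 expected counts, a mean of 2.33 ± 1.04 TPM. It was the only one of the 9 genes with its highest log2 CPM in library 2, at 3.44, against 2.29 and 2.15 in libraries 1 and 3. Pim2 (ENSMUSG00000031155.16, chrX:7878262-7883432, plus strand) had 1.52, 1.09 and 3.15 TPM from 59, 32 and 81 expected counts, a mean of 1.92 ± 1.09 TPM. Sik1 exceeded Plk3 by 1.08 ± 0.69 in 3 of 3 libraries, while Plk3 exceeded Pim2 by 0.30 ± 1.08, in 1 of 3 libraries. The second quantification put Pim2 above Plk3 on average, at 5.80 ± 3.70 and 3.08 ± 0.755 TPM. Plk3 and Pim2 lay below the median detected protein-coding gene of the first quantification, at percentiles 32.9 and 28.9, and the other 7 genes lay above it. Sik1 fell below the median in the second quantification, at percentile 45.2, as did Pim2 at 41.7 and Plk3 at 27.1.

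**Figure D1:**
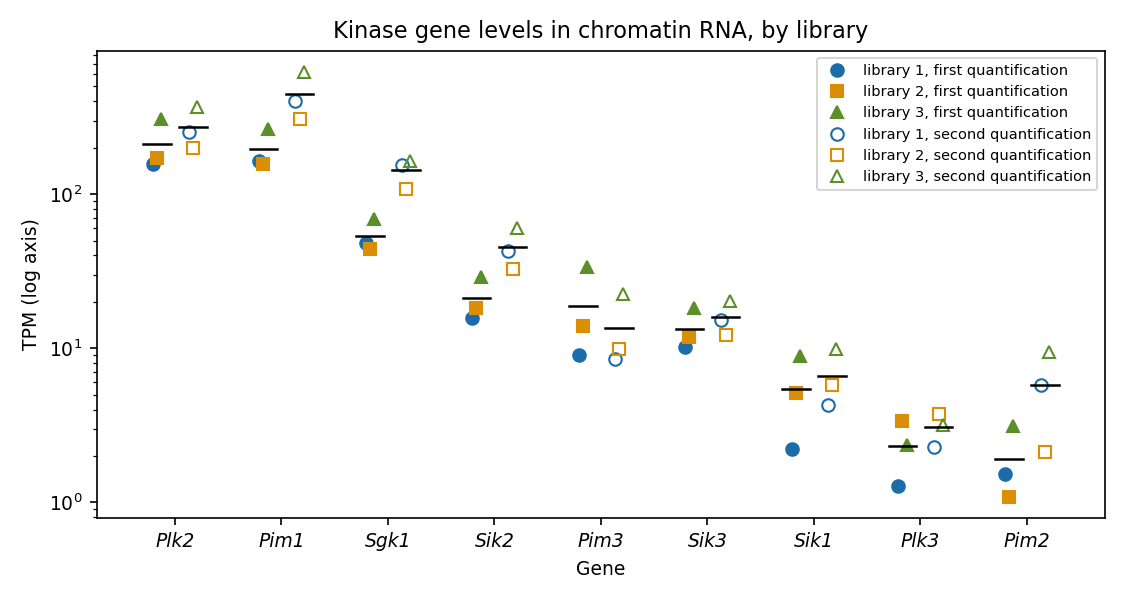
TPM (log axis) of the 9 kinase genes in libraries 1 to 3, in the first quantification (filled) and the second (open), with black bars at the mean of 3 libraries. Plk2 and Pim1 lie at 156 to 306 TPM in the first quantification, and Pim2 and Plk3 at 1.09 to 3.35 TPM.

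Across the list, the median member stood at 10.2, 13.9 and 29.2 TPM in libraries 1 to 3, which was 2.93, 3.12 and 4.24 times the median of detected protein-coding genes in the same library. A further scale, added after the data were seen, divides expected counts by the merged exons of all annotated transcripts of a gene. Its length does not depend on isoform shares, but its counts still come from the authors' model. On it Plk2 (109, 106 and 134 CPM per kb) stayed above Pim1 (79.1, 63.4 and 90.8 CPM per kb) in each library.

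Within families the differences between paralogs were larger than their spread in TPM, and their size depended on the scale. Pim1 exceeded Pim2 by 6.68 ± 0.35 (SD, n = 3) in log2(TPM + 0.1), or 103-fold, and Pim3 by 3.54 ± 0.60, or 11.6-fold. The excess over Pim3 was 5.10 ± 0.41 in the second quantification and 2.58 ± 0.54 per kilobase of merged exons, and the excess over Pim2 was 6.05 ± 0.46 per kilobase. Pim3 in turn exceeded Pim2 by 3.14 ± 0.56, a difference of 1.32 in the second quantification. Plk2, the most abundant of the 9 genes, exceeded Plk3 by 6.48 ± 0.73, or 89.1-fold, and by 5.57 ± 0.77 per kilobase of merged exons.

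Among the SIK genes, Sik1 was the lowest: Sik1 minus Sik2 was −2.10 ± 0.59 and Sik1 minus Sik3 −1.46 ± 0.61 in log2(TPM + 0.1). Per kilobase of merged exons these differences were −0.83 ± 0.79 and −0.88 ± 0.82, about the size of their spread, and Sik1 minus Sik2 was −2.79 ± 0.42 in the second quantification. Sik3 minus Sik2 was −0.64 ± 0.03 in log2(TPM + 0.1) of the first quantification. This order did not hold without the isoform lengths: the difference was 0.0091 ± 0.078 in log2 CPM and 0.043 ± 0.078 per kilobase of merged exons. Both were within their spread, and in library 2 Sik3 was the lower on both scales. The difference was −1.48 ± 0.07 in the second quantification. The gene Ppp2r1b, with a mean of 229 expected counts, lies on the opposite strand of the Sik2 locus. Sgk1 exceeded its paralog Sgk3 (18.7 ± 6.92 TPM) by 1.55 ± 0.18. This excess was 2.28 ± 0.23 in the second quantification but 0.10 ± 0.04 in log2 CPM, without length correction. In log2(TPM + 0.1) each of the 8 contrasts had the same direction in 3 of 3 libraries. By exact permutation of the signs over libraries (two-sided), p was 0.25 for each of them and 0.25 after Benjamini-Hochberg adjustment over the 8. No smaller p is possible with 3 libraries.

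**Figure D2:**
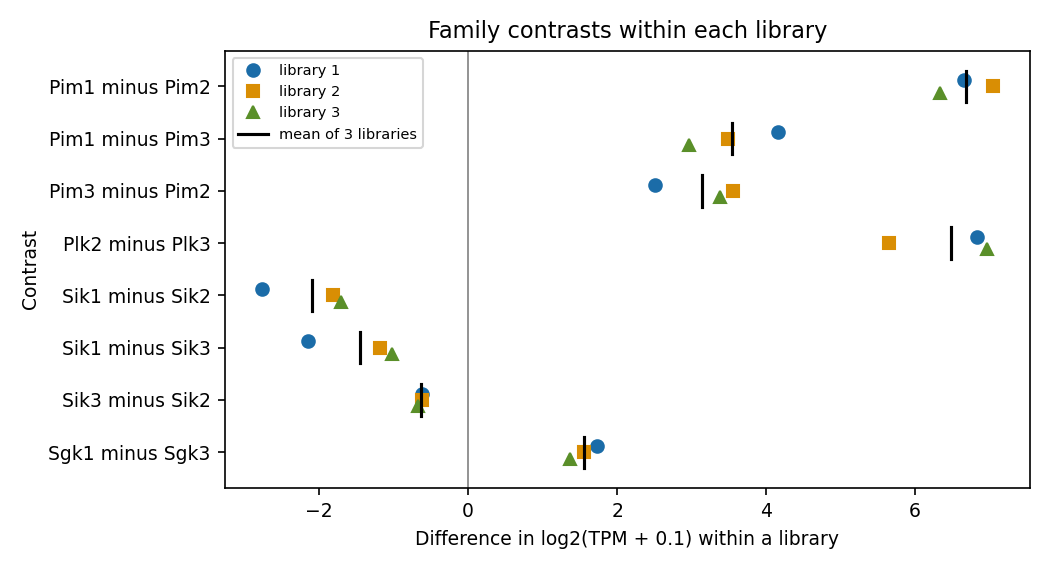
Differences in log2(TPM + 0.1) between paralogs within each library (points), with black bars at the mean of 3 libraries. The points of each contrast lie on 1 side of 0, from 6.34 to 7.05 for Pim1 minus Pim2 down to −2.77 to −1.71 for Sik1 minus Sik2.

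The deposited tables also divide each gene among its annotated transcripts, and much of the kinase RNA was assigned to models that encode no full protein. The share of a gene's TPM on noncoding models (retained-intron, processed and nonsense-mediated decay transcripts) was 74.4% ± 3.91 (SD, n = 3) for Sik2, 52.1% ± 7.58 for Sgk1 and 48.8% ± 1.19 for Plk2. It was lowest for Plk3, at 18.1% ± 4.84, and Sik3, at 14.0%, 11.4% and 19.5% in libraries 1 to 3. The median of the 9 genes was 39.0%, against 45.0% over the 9017 detected protein-coding genes that have such models, and 3 of the 9 lay above that median. The share depends on the scale, since TPM divides by length and many of these models are short. By expected counts it was 56.4% ± 6.11 for Sik2, 17.6% ± 4.64 for Sgk1 and 31.9% ± 1.06 for Plk2, and the median of the 9 genes was 19.0%, against 25.5% over the same 9017 genes. Only Sik2 and Plk2 lay above that median.

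**Figure D3:**
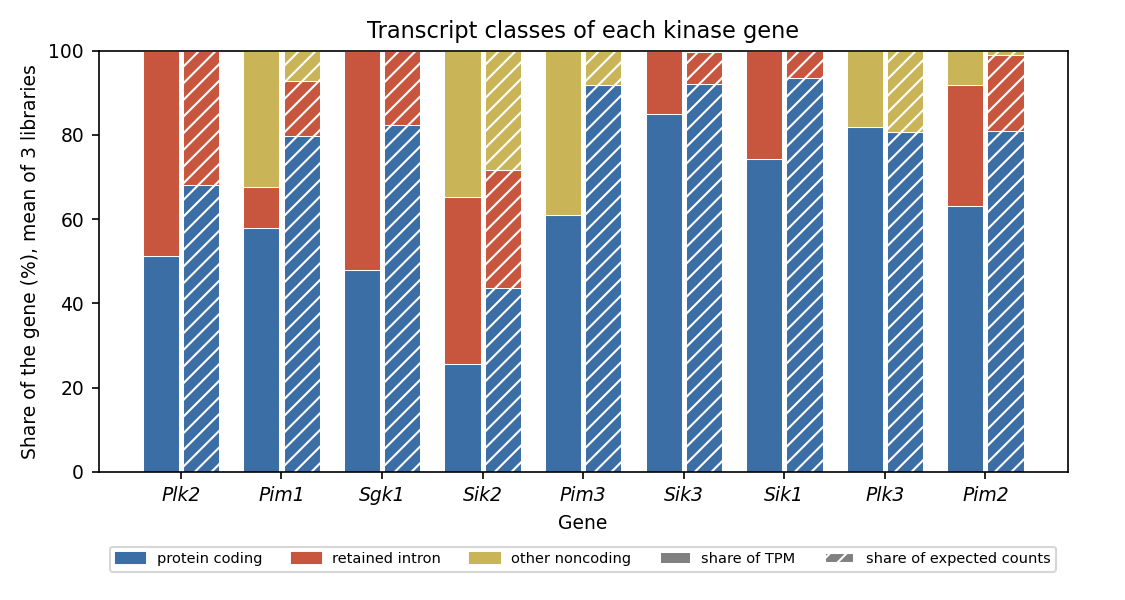
Share of each kinase gene assigned to protein-coding, retained-intron and other noncoding transcripts, as percent of TPM (plain bars) and of expected counts (hatched bars), means of 3 libraries. The coding share is larger by expected counts than by TPM for every gene but Plk3, and Sik2 has the largest noncoding share on both scales.

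Plk2 had the steadiest division of the 9 genes. Its coding transcript Plk2-201, of 14 exons, took 49.8%, 51.7% and 52.0% of TPM in libraries 1 to 3. The retained-intron model Plk2-203, 1 unspliced stretch of 2316 nt from the start of the gene, took 23.7%, 22.6% and 25.6%, and by expected counts it took 25.9% ± 1.24. Plk2-204, a model of 689 nt in the middle of the gene, took 24.8%, 24.2% and 19.2% of TPM but 5.51% ± 0.97 of expected counts. The libraries differed little for these models, and the 2 scales gave like shares for the long model and unlike shares for the short one. In the second quantification Plk2-204 held 41.8%, 41.8% and 36.2% of TPM, above Plk2-201 (39.6%, 40.6% and 42.4%) in libraries 1 and 2, and Plk2-203 held 18.1% ± 1.32.

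**Figure D4:**
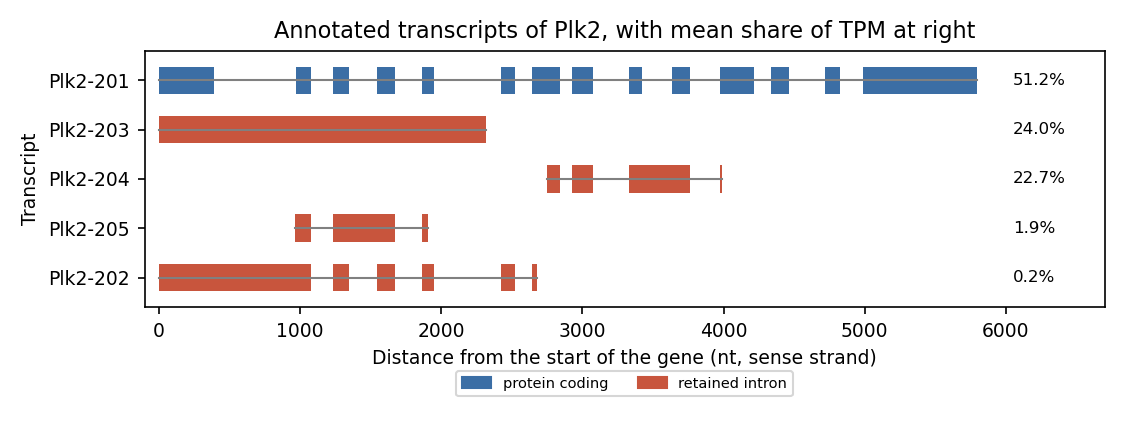
Exons (boxes) of the 5 annotated Plk2 transcripts by distance in nt from the start of the gene, with the mean share of the gene's TPM at right. The retained-intron model Plk2-203 (24.0%) runs unbroken over the first exons and introns of the coding transcript Plk2-201 (51.2%).

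Of 14 retained-intron models of the 9 genes, 7 contain at least 1 whole intron of a coding transcript, which makes 8 distinct introns, 5 of them in Plk2. All 8 begin with GT and end with AG. The bases below set the retained-intron models of Plk2 and Sgk1 apart from their coding transcripts. They are from GENCODE M21 transcripts on mm10, 5′ to 3′ on the plus strand, with the intron in capitals and 15 exon bases on either side in lower case. The first 2 are introns of Plk2-203, 153 nt at chr13:110396123-110396275 and 198 nt at chr13:110396393-110396590. The next is the intron of 208 nt in Plk2-204, at chr13:110398471-110398678. The last 2 are those of Sgk1-207, 113 nt at chr10:21996110-21996222, and Sgk1-208, 106 nt at chr10:21998054-21998159.
Plk2-203 intron of 153 nt: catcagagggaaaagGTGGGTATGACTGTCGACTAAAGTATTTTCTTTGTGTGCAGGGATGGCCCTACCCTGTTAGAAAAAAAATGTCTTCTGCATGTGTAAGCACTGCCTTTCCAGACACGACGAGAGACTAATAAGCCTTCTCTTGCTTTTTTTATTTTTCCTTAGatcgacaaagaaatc
Plk2-203 intron of 198 nt: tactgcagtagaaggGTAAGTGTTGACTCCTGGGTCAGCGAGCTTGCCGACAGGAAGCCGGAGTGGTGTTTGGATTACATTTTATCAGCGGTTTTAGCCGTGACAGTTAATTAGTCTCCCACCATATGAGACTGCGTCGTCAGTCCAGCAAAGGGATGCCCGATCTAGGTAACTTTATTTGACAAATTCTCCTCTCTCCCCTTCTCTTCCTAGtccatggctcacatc
Plk2-204 intron: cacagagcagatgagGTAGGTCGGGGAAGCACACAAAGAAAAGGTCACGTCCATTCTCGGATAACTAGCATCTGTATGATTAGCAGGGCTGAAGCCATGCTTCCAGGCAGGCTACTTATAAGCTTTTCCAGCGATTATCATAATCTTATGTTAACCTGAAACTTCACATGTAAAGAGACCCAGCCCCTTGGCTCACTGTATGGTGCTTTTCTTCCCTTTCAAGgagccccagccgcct
Sgk1-207 intron: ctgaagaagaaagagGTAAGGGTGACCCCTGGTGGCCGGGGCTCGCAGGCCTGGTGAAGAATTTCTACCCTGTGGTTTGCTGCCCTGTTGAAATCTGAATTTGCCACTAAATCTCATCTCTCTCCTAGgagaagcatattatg
Sgk1-208 intron: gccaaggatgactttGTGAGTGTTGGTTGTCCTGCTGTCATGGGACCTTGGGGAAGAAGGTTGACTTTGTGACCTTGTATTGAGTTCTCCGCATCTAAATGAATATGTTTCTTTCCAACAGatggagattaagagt

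The Sgk1 signal came from the downstream end of its long annotation. Of its 13 transcripts, the 5 that start in the first 100 kb of the locus (Sgk1-204, Sgk1-205, Sgk1-210, Sgk1-211 and Sgk1-213) were at 0 in all 3 libraries, and in the second quantification they held 0.381% of the gene's TPM. The other 8 start 110.0 kb or more into the locus. The coding transcript Sgk1-201 starts at 112 kb and took 25.7%, 31.8% and 40.1% of TPM in libraries 1 to 3, and 62.4% ± 5.39 of expected counts. Sgk1-208, a retained-intron model of 644 nt, took 28.2%, 24.4% and 27.6% of TPM but 9.96% ± 2.23 of expected counts. Sgk1-207, of 688 nt, took 15.5% ± 2.06 of TPM and 6.39% ± 1.59 of expected counts. The coding transcript led in expected counts, and by TPM it led in libraries 2 and 3 while Sgk1-208 led in library 1. In the second quantification it held 7.49% ± 1.76 of the gene's TPM, and the retained-intron model Sgk1-209, of 347 nt, held 38.9% ± 2.18.

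Sik2 was the only one of the 9 genes whose leading transcript was noncoding on both scales. The retained-intron model Sik2-208 took 41.4%, 34.2% and 33.7% of TPM in libraries 1 to 3, and 27.7% ± 2.86 of expected counts. The 4 models Sik2-202, Sik2-203, Sik2-207 and Sik2-208, grouped after their values were seen, end 13.5 to 80.8 kb into a gene of 116 kb. Together they took 72.5%, 69.6% and 70.1% of TPM, and 55.6%, 51.6% and 47.7% of expected counts, so that the transcripts reaching the end of the gene held the smaller part of TPM in every library. In the second quantification their share of TPM was 85.4% ± 0.84.

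Pim1 was divided among short models by TPM and led by its coding transcript in expected counts. The processed transcript Pim1-202, of 355 nt, took 33.7%, 25.4% and 27.9% of TPM in libraries 1 to 3 but 4.05% ± 1.28 of expected counts. The coding Pim1-201, of 2698 nt, took 24.2%, 22.3% and 33.0% of TPM and 62.9% ± 6.09 of expected counts. In the second quantification Pim1-201 held 7.38% ± 0.54 of the gene's TPM, and Pim1-202 held 34.9% ± 2.39, the largest share by TPM there too. For Pim3, the processed transcript Pim3-202, of 522 nt, took 39.0% ± 6.74 of TPM and 8.20% ± 2.29 of expected counts, and in the second quantification it was at 0 in libraries 1 and 2. Pim2-201, the coding transcript of Pim2, took 63.2% ± 12.1 of TPM and 81.0% ± 6.47 of expected counts.

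The remaining genes were led by coding transcripts. Sik1-201 took 67.2%, 68.2% and 87.6% of Sik1 TPM in libraries 1 to 3, and the retained-intron model Sik1-204 took 31.5%, 29.4% and 6.62%, from 12.1, 22.9 and 5.86 expected counts. Library 3 thus stood apart, at a depth of few reads for the minor model. Sik3-204 took 41.3% ± 8.50 of Sik3 TPM and 61.5% ± 9.80 of expected counts. Plk3 was divided between a pair of coding transcripts that differed by library: Plk3-201 took 76.4%, 83.1% and 41.1% of TPM and Plk3-203 took 0%, 2.41% and 42.8%. The second quantification put Plk3-203 at 0 in every library, and the mean of 15.1% in the first rests on library 3.

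Between libraries, none of the 9 genes passed the test of spread. With edgeR's quasi-likelihood fit of a single mean to expected counts, 0 of the 9 were called at an adjusted p under 0.05, and 0% of the 13309 genes tested were. At an unadjusted p under 0.05 there were 655 of the 13309 genes. Sik1, with an adjusted p of 0.907, was the 1 kinase gene among them. The reference spread was fitted to these same genes, so a share near 0.05 is largely set by the fit. The test marks only genes more variable than that trend, so a gene not called is not thereby shown to be alike between libraries. DESeq2 marked 54 genes as dispersion outliers, none of them one of the 9. The range of log2 CPM over the libraries had a median of 0.34 over the 9 genes, against 0.54 over all detected genes, and 4 of the 9 exceeded the latter value. These 4 were Pim2, Pim3, Plk3 and Sik1, which include the 3 with the fewest counts.

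Library 3 held the highest log2 CPM for 4 of the 9 genes (Pim2, Pim3, Plk2 and Sik1), against 34.6% of all detected genes. With total-count scaling the number was 8 of 9, against 53.2% of detected genes, and that scaling moved the median detected gene by 0.14 in library 3. The amount of starting RNA differed between the libraries, occurred once each, and cannot be told apart from other differences between them.

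**Figure D5:**
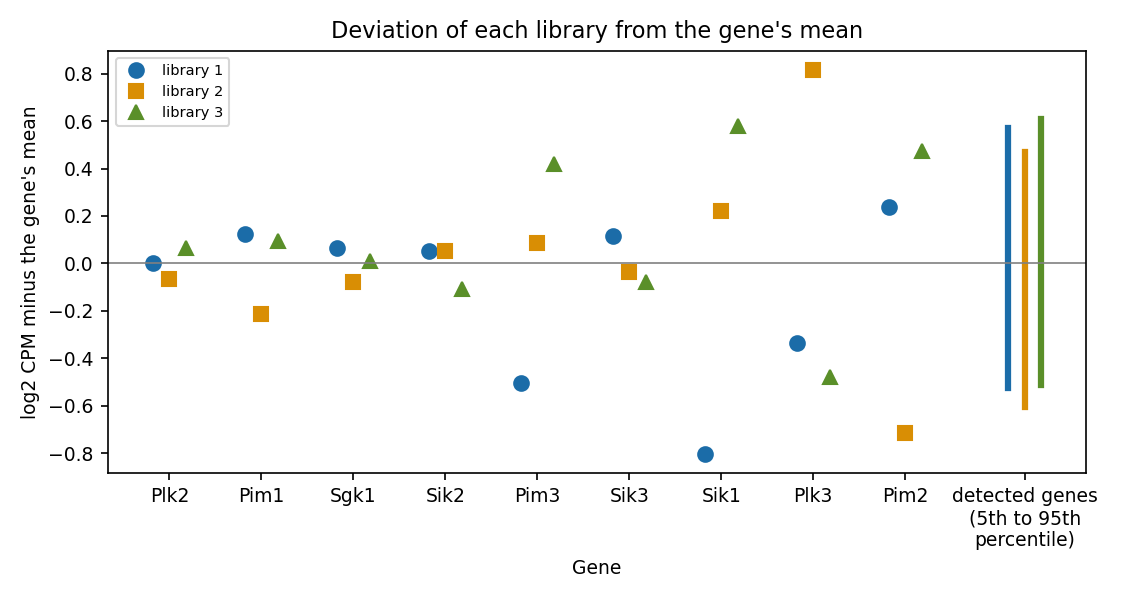
Log2 CPM of each kinase gene in libraries 1 to 3, as the difference from the gene's mean, beside lines for the 5th to 95th percentile of all detected genes. Plk2 lies within −0.07 to 0.06, while Sik1 in library 1 (−0.80), Plk3 in library 2 (0.82) and Pim2 in library 2 (−0.71) lie outside the lines.

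The other genes of these pathways were mostly present at lower levels in the first quantification. Of 47 listed genes 43 were detected, and the median of mean levels over all 47 was 7.62 TPM, against 18.9 TPM for the 9 kinase genes and 4.98 TPM for detected protein-coding genes. The gap between the listed genes and the kinase genes was smaller in the second quantification. On the LKB1 and SIK axis, 11 of 11 genes were detected. Their median, taken for this and the other lists over all genes of a list, was 10.4 ± 3.30 TPM. The highest were Hdac5, a class IIa deacetylase and SIK substrate, at 28.8, 53.3 and 63.1 TPM and Stk11 at 22.3, 38.4 and 45.8 TPM. Of 12 other kinases of the AMPK-related family 10 were detected. Nuak2 had 46.6, 42.3 and 87.9 TPM and Mark3 25.5, 28.0 and 35.0 TPM, each above every SIK gene by its mean. Mark1 was listed at 0, and Prkaa2, a catalytic subunit of AMPK, had 4, 7 and 9 expected counts.

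On the SGK axis 8 of 8 activators and targets were detected, with a median of 18.3 ± 6.87 TPM. Nedd4l, the ligase that SGK1 restrains, had 58.5, 52.6 and 76.5 TPM, and Pdpk1, which encodes the activating kinase PDK1, had 28.5, 25.5 and 44.8 TPM. Of 7 related AGC kinases 6 were detected, with a median of 11.7 ± 3.49 TPM. Akt1 stood highest at 35.6 ± 9.29 TPM, followed by Sgk3, and Sgk2 had 0 expected counts. Sgk1 was the highest of the SGK genes and lay below Nedd4l by its mean, but in the second quantification it lay above Nedd4l in each library, at 155, 108 and 165 TPM against 140.1, 84.5 and 137 TPM.

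Of the 3 other Polo-like kinases, Plk4, which controls centriole duplication, had 5.48 ± 2.33 TPM, the mitotic kinase Plk1 had 0.597 ± 0.260 TPM, and Plk5 was listed at 0. All 6 PIM target genes were detected, and their median level was 3.13 ± 1.19 TPM. Cdkn1a, which encodes p21, had 210.3, 164 and 383 TPM, a mean of 253 ± 115, and was the 1 listed gene of 47 above Plk2 and Pim1 by these means. In library 2 it lay below Plk2, at 164 against 172 TPM, and in the second quantification its mean of 238 TPM lay below both Plk2 (273 TPM) and Pim1 (444 TPM). Cdkn1b, which encodes p27, had 4.26, 4.53 and 15.7 TPM, and its mean of 8.18 TPM fell to 4.40 TPM without library 3. Where a library had 0 counts, as many as 3 remain possible, which is 0.184, 0.176 and 0.185 CPM in libraries 1 to 3. This limit covers counting error only.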

How the data were processed

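Chromatin-fraction total RNA of 1 group of 3 libraries was analysed. The authors deposited, per library, gene and transcript tables of expected counts and TPM on mm10 with GENCODE M21, per the file headers and deposited notes, with credible bounds and, per transcript, the percent of the gene's TPM. The authors also deposited a transcript table from another quantification of the reads, with estimated counts and TPM. The sources used here give no quantification tool, version or strand setting. TPM carries no depth. Entries that name no annotated gene held 1.03%, 0.245% and 0.218% of expected counts and were left out.

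The 9 members, pathway lists and markers were chosen with earlier results of these data known. A further marker list is not reported here. Of each pathway list, the 2 detected genes with the highest mean TPM and all undetected genes were named. Levels are means ± SD over libraries, and paralog contrasts are differences in log2(TPM + 0.1), with a pseudocount of 0.1, tested by exact sign-flip permutation. Rounded expected counts entered the test of spread, run in edgeR 4.0.16 under R 4.3.3 (TMM, filterByExpr, intercept-only quasi-likelihood fit, deviance against the trended prior, Benjamini-Hochberg adjustment over all genes tested). On simulated data for 12964 genes it recovered 52 of the 100 simulated 4-fold changes and 99 of the 100 simulated 8-fold changes, and called 0 unchanged genes. The changes were placed in library 1 only, in genes of higher counts, with counts drawn at the trended dispersion. Changes as small as those of the 9 genes, at most 1.38 in log2 CPM (Sik1), were not simulated. Alternatives were other pseudocounts, scalings, filters and length corrections, the second quantification, posterior mean TPM, DESeq2 1.42.0 and leaving out each library. Counts per kilobase and shares of expected counts were added after seeing the data. Tables were joined with pandas 2.3.3 and numpy 2.4.6 in Python 3.11.15, tested with scipy 1.17.1 and drawn with matplotlib 3.10.9.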

Additional observations from a re-analysis of the deposited data

How the results depend on the processing

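Of 72 alternative values of the 8 paralog contrasts, 70 kept their direction and 2 reversed: Sik3 minus Sik2 was 0.0091 in log2 CPM without length correction and 0.043 per kilobase of merged exons, the latter added after seeing the data. Both alternatives change the length correction, and both values were smaller than their SD of 0.078 over libraries. The cause of the reversal was not tested. The number of genes past the spread test was 0 in the edgeR fit as reported, 117 with no filter, 54 as DESeq2 dispersion outliers, and 0 to 49 when each library was left out, with 49 without library 2 and 17 without library 1. The members highest in library 3 numbered 4 of 9 in log2 CPM and 8 of 9 with total-count scaling, with log2(TPM + 0.1) and with counts of the second quantification. The shares of all detected genes highest in library 3 were 34.6%, 53.2%, 87.3% and 59.1% on these scales, in that order. Mean TPM depended on what it was scaled over: rescaled over genes of at least 300 nt, Plk2 stood at 598 and Pim1 at 560.3 TPM. Of all alternatives for single-gene levels and noncoding shares, these included, 73 moved by less than the spread between libraries and 26 by more. Depth limited Pim2, Plk3 and the minor transcripts of Sik1, which rested on 177 or fewer expected counts per library. No paired analysis was possible because there is 1 group.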
